A study of Bos taurus with 2 samples.

Results

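Intermediately methylated CpG islands of bull sperm are dense runs of CpG sites whose pooled methylation level lay between those of the unmethylated and the methylated islands. A run was defined as consecutive CpG sites with gaps of at most 50 bp between neighbours, holding 20 to 99 sites, on the 29 autosomes. Its level was the share of methylated reads among all reads over its CpG sites. A read was counted at each CpG site it covered, so the reads of a run are sums over its sites. Members were chosen by their level, from 25% to 75% in both libraries, with at least 100 such reads and a mean below 100 reads per CpG in each. Of 70535 autosomal runs, 60344 met the read limits and are called eligible, and 3097 of these were also in the level band. The 3097 members held 100136 CpG sites. Because both levels chose the members, their levels are given as a description and not as a test.

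CpG islands are stretches of DNA in which the dinucleotide CpG is frequent. In mammalian sperm most islands at promoters are free of methylation, whereas the bulk of the genome, including most transposable elements, is methylated by DNA methyltransferases during male germ cell development. Each sperm carries a haploid genome, so a single CpG in a single sperm is either methylated or not, and a level between these states is a mixture over the sperm, alleles or sequence copies whose reads fell on that position.

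The data were whole-genome bisulfite sequencing libraries of sperm from Bull1 and Bull2, a pair of monozygotic twin Holstein bulls that differed in semen quality. Bisulfite turns unmethylated cytosines into uracil, so the cytosines that remain are read as methylated. Frozen semen of both adult bulls was taken within the same week, and no treatment is given for either bull. There was 1 library per bull, so no spread between replicates exists, and each difference below compares 2 libraries and not fertility classes. Across all chromosomes the mean was 20.01 reads per CpG in Bull1 and 18.4 in Bull2. Members had medians of 9.30 and 9.22 reads per CpG, against 8.11 and 8.37 over all eligible runs. Summed over the sites of a run, the medians of members were 277 and 271 reads. Intervals are exact Clopper-Pearson intervals at 95% and cover counting error only, and reads over neighbouring CpG sites are not independent. Coordinates are on UMD3.1 as listed by the authors. Gene annotation of that build was not used here, so genes and the sperm label were not checked at marker loci.

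Some members shared an internal layout, read from the distances between their CpG sites. The patterns below are the CpG layouts most often found in members of each of 3 groups of such runs, written with CG in capitals and n for the bases that the count tables do not give. They are shown because the levels of single CpG sites described further on followed these layouts.
Group 1: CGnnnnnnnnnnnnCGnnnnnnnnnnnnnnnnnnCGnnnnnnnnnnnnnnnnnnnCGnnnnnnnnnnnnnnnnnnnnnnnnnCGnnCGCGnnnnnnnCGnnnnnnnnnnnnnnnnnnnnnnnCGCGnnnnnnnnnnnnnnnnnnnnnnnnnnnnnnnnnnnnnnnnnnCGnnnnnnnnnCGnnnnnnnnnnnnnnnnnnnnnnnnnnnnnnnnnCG
Group 2: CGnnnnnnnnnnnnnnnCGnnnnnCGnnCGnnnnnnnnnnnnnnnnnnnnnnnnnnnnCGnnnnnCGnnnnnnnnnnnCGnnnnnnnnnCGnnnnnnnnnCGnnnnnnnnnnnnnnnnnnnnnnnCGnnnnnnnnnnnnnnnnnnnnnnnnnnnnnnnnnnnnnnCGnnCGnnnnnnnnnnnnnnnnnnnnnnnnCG
Group 3: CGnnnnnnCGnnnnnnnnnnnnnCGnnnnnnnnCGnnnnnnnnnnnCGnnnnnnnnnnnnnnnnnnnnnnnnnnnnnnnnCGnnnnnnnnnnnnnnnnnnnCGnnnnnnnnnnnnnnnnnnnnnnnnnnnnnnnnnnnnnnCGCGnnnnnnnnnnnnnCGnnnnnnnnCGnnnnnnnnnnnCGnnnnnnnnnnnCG
Each pattern holds 13 CpG sites, over 216, 197 and 196 bases. The group 1 pattern had 94 exact matches on 27 chromosomes, 19 of them in members. Only 38 of the 94 had at least 20 reads, with 3.71 and 3.42 reads per CpG over all 94 in Bull1 and Bull2. The group 2 pattern had 472 matches on 29 chromosomes, 73 of them in members. The group 3 pattern had 151 matches on 9 chromosomes, 10 of them in members.

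Levels of eligible runs fell into a low and a high class with few runs between. Of the 60344 eligible runs, 26813 (44.4%) were below 25% in both libraries and 28348 (47.0%) were above 75% in both. The members made up 5.13%, and the remaining 2086 runs lay in different bands in the 2 libraries. Median levels of members were 49.8% in Bull1 and 48.3% in Bull2. Medians were 1.33% and 1.17% in unmethylated runs and 91.5% and 88.5% in methylated runs. Members did not gather at the middle of the band. In Bull1 each step of 5 points between 30% and 65% held 254 to 329 members, whereas the step from 25% to 30% held 469.

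**Figure D1:**
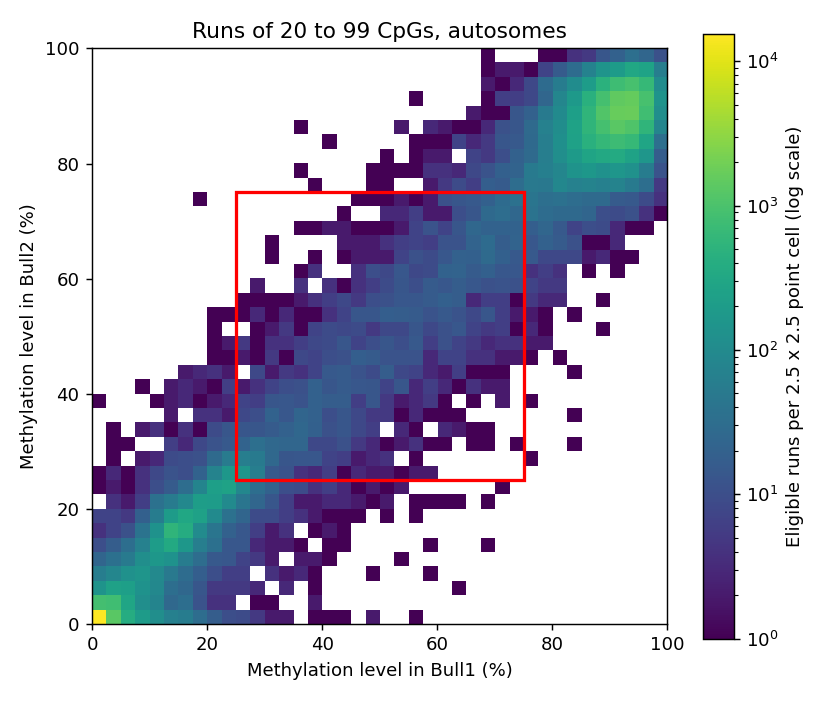
Level of each eligible run in Bull1 (x axis, %) and Bull2 (y axis, %), with the number of runs per cell of 2.5 by 2.5 points on a logarithmic colour scale. The red box marks the band from 25% to 75% that holds the 3097 members. Most runs lie at the lower left and upper right corners, with a further ridge below 25% that runs into the box.

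Most runs in the band in one library were also in it in the other, which is called carry-over here. The same levels chose the members, so the shares are a description. Of all 60344 eligible runs, 3919 were in the band in Bull1 and 4361 in Bull2. Of 3919 eligible runs in the band in Bull1, 3097 were also in the band in Bull2, or 79.0% (77.7 to 80.3%). Of 4361 runs in the band in Bull2, 71.0% (69.6 to 72.4%) were in it in Bull1. Of the runs chosen in Bull2 that left the band, 700 were above it in Bull1 and 564 below. Among the 1528 runs in the band in Bull2 with 10 reads per CpG or more, the order was the reverse. In Bull1, 185 of these were above the band and 305 below. The deeper runs are a different set of runs, and no comparison by depth was made within the same runs or kinds of run. Whether depth itself changed the direction was not tested. At the edges of the band the choice rested on small differences. The run chr9:384278-384639 was inside with exactly 25% in Bull1, and chr5:54089201-54089599 was outside with 24.97%. At the upper edge chr21:66845382-66845714 was inside with exactly 75% in Bull1, and chr23:49503732-49504184 was outside with 75.05%. In Bull2, chr22:2867973-2868336 was inside with 25% and chr24:4470057-4470629 outside with 24.98%, and chr21:2915037-2915664 was inside with 75% and chr21:70732996-70733914 outside with 75.07%.

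Members were smaller than unmethylated islands and resembled methylated ones in size. The median member held 27 CpG sites over 407 bp, against 40 sites over 492 bp in unmethylated runs and 27 sites over 426 bp in methylated runs. Median density was 6.60 CpG sites per 100 bp in members, 8.29 in unmethylated runs and 6.33 in methylated runs. The share of eligible runs that were members fell with size, from 7.07% (6.68 to 7.46%) at 20 to 24 CpG sites to 2.48% (2.16 to 2.83%) at 60 to 99. It was 1.57% (1.28 to 1.92%) at 10 or more CpG sites per 100 bp and 7.53% (7.10 to 7.97%) at 6 to 7. The fall with size was also present among runs in no spacing group (runs joined by shared layout, described below), from 4.91% to 2.56%.

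Members lay on all 29 autosomes. Chromosome 18 held the most, 175, and chromosome 28 the fewest, 48. Relative to eligible runs the share ranged from 3.14% on chromosome 19 (95 of 3023) to 7.98% on chromosome 8 (159 of 1992). Of these members, 78 on chromosome 19 and 59 on chromosome 8 were in no spacing group. The last 5 Mb of the listed positions of each chromosome held 24.5% of members and 31.7% of all eligible runs, with 51.6% of methylated and 11.7% of unmethylated runs. The first 5 Mb held 9.07% of members and 7.31% of all eligible runs. Of the members, 14.8% had another member within 2 kb, 18.1% an unmethylated run and 15.01% a methylated run. Unmethylated runs had another unmethylated run within 2 kb in 49.3% of cases, and methylated runs another methylated run in 59.1%. The classes differ in number, which bears on these shares.

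Some members stood in rows. Between chr6:17954119 and 17989189 there were 8 members of 21 to 36 CpG sites, with levels of 25.03 to 31.8% in Bull1 and 25.6 to 31.7% in Bull2. Between chr18:64271490 and 64282025 there were 7 members of 28 to 70 CpG sites, with levels of 30.9 to 70.3% and 28.8 to 67.7%. Between chr22:60914328 and 60935596 there were 6 members, with levels of 28.5 to 72.6% and 26.8 to 72.8%. The 8 members on chromosome 6 were joined by shared layouts as described next. By the same rule the 7 on chromosome 18 and the 6 on chromosome 22 were joined with no other run.

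Internal layout separated the members into several kinds. Runs were joined when they shared 8 consecutive CpG-to-CpG distances in either direction, and the joined runs are called spacing groups. Joining ran in chains, so 2 runs of a group need not share distances with each other. Nearly identical stretches of sequence give the same distances, so a spacing group collects candidate copies, of one sequence or of several linked by such chains. Their identity was not analysed here. Of the members, 965 (31.2%) belonged to a spacing group of any size, against 20.2% of unmethylated and 1.81% of methylated runs. With 10 or 12 shared distances the share of members was 24.7% or 19.7%. The other 2132 members (68.8%) were joined with no other run by this rule. It needs 8 exact distances in a row, so runs with partly similar layouts can remain among them.

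Group 1 was the spacing group with most members. It held 1177 runs, of which 696 were eligible and 434 were members. These 434 were 14.0% of all members, on 29 chromosomes. With 10 or 12 shared distances group 1 had 342 or 231 members. The 434 were 62.4% of the eligible runs of the group, whereas 4.04% of eligible runs without a group were members. A further 116 eligible runs of group 1 were methylated and 9 were unmethylated. The median run of the group held 23 CpG sites over 339 bp. Its eligible runs had median levels of 66.4% in Bull1 and 63.7% in Bull2. Their levels varied with an SD of 16.7 points in Bull1 and 15.9 in Bull2. Counting error alone would give about 3.08 and 3.22 if reads over neighbouring sites were independent, which they are not. Pearson's r between the libraries was 0.845 across these 696 runs, which are linked by shared distances, come from the same libraries and are not replicates. Group 1 members had medians of 9.74 and 9.44 reads per CpG, close to those of all members. The other 481 runs of the group fell outside the read limits.

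Groups 2 and 3 were low and deep. Group 2 held 3610 eligible runs with median levels of 16.0% in Bull1 and 17.9% in Bull2, and 85.1% of them were unmethylated by the 25% limit. Its 223 members (6.18% of the eligible) were the upper edge of that distribution, at medians of 27.0% and 27.3%. Group 3 held 504 eligible runs at medians of 21.6% and 22.2%, and its 71 members were at 27.7% and 27.2%. Group 2 members had medians of 43.5 and 48.3 reads per CpG and group 3 members 51.9 and 55.1, against 8.50 and 8.55 in members without a group. Neither group held a methylated run among its eligible runs. The part of depth in these levels was not tested.

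Group 4 spanned the unmethylated, intermediate and methylated classes. It held 190 eligible runs, of which 60 were members, 47 were unmethylated and 51 were methylated. Median levels of the eligible runs were 55.6% and 57.4%, with quartiles of 22.3 and 82.2% in Bull1 and of 21.7 and 78.8% in Bull2. Levels of these runs had an SD of 31.5 points in Bull1 and 31.2 in Bull2, and r between the libraries was 0.966 over the 190 runs. Depth of the 60 members was ordinary, with medians of 9.23 and 8.64 reads per CpG.

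**Figure D2:**
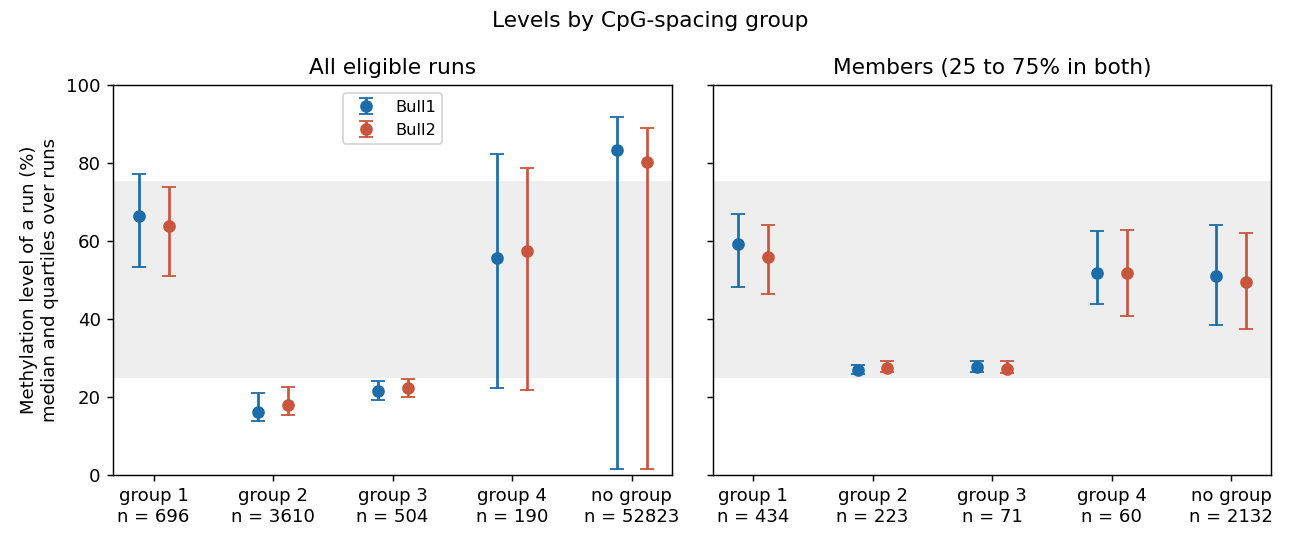
Median level (points) and quartiles (bars) over runs, in % for Bull1 and Bull2, by CpG-spacing group, for all eligible runs (left) and for members (right), with the band from 25% to 75% shaded. Eligible runs of group 1 centre inside the band at 66.4% and 63.7%, whereas those of groups 2 and 3 lie below it.

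Smaller spacing groups held a further 177 members. One was a group of 15 runs of about 82 CpG sites over 1003 bp on 4 chromosomes, of which 10 were eligible and 8 were members. Levels of these 8 ranged from 35.6 to 41.6% in Bull1 and from 33.6 to 41.0% in Bull2. They included 4 members in a row between chr24:24853100 and 24867065. A group of 4 runs on chromosome 11, between 107286877 and 107300039, consisted of members only, with levels of 47.3 to 73.4% in Bull1 and 46.5 to 71.0% in Bull2.

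Within the shared layouts of groups 1 to 3, levels differed between the CpG sites of a pattern. In the 73 copies of the group 2 pattern in members, levels of the 13 CpG sites ranged from 5.80 to 53.6% in Bull1 and from 5.70 to 54.9% in Bull2. The tenth CpG, 125 bp into the pattern, was lowest at 5.80% and 5.70%. The eleventh and the twelfth, at 165 and 169 bp, were highest, with 53.4 and 53.6% in Bull1 and 54.9 and 54.8% in Bull2. The third CpG at 24 bp was at 47.4% and 48.7%, and the fourth, 4 bp further on at 28 bp, was at 19.8% and 21.6%. The largest gap between the bulls at any of the 13 sites, summed over the copies, was 2.76 points. The same 13 sites over all 472 matches, most of them not members, ranged from 5.63 to 51.4% in Bull1 and from 5.78 to 55.1% in Bull2. Each site of the pattern was covered by 4728 to 6949 reads in Bull1 over the copies in members.

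The group 3 pattern had a similar spread. In its 10 copies in members, the second CpG at 8 bp was highest with 61.2% and 59.4%, and the seventh at 101 bp was lowest with 14.1% and 13.9%. The first CpG, only 8 bp from the highest, was at 22.5% and 20.5%. In the 19 copies of the group 1 pattern in members, 12 of the 13 sites lay between 43.1 and 64.9% in Bull1. The tenth CpG at 124 bp was lowest at 31.2% and 28.3%, although the ninth CpG was only 2 bp before it and was at 64.7% and 69.1%. Group 4 showed no such repeat between the bulls in its most frequent layout. It had only 4 copies in members, with 7.22 and 7.64 reads per CpG, and its 9 sites were at 42.3 to 65.4% in Bull1 and 30.8 to 61.5% in Bull2, with a gap of up to 27.9 points between the bulls at a site. These levels describe sites of one shared layout and are not independent measurements of a condition.

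**Figure D3:**
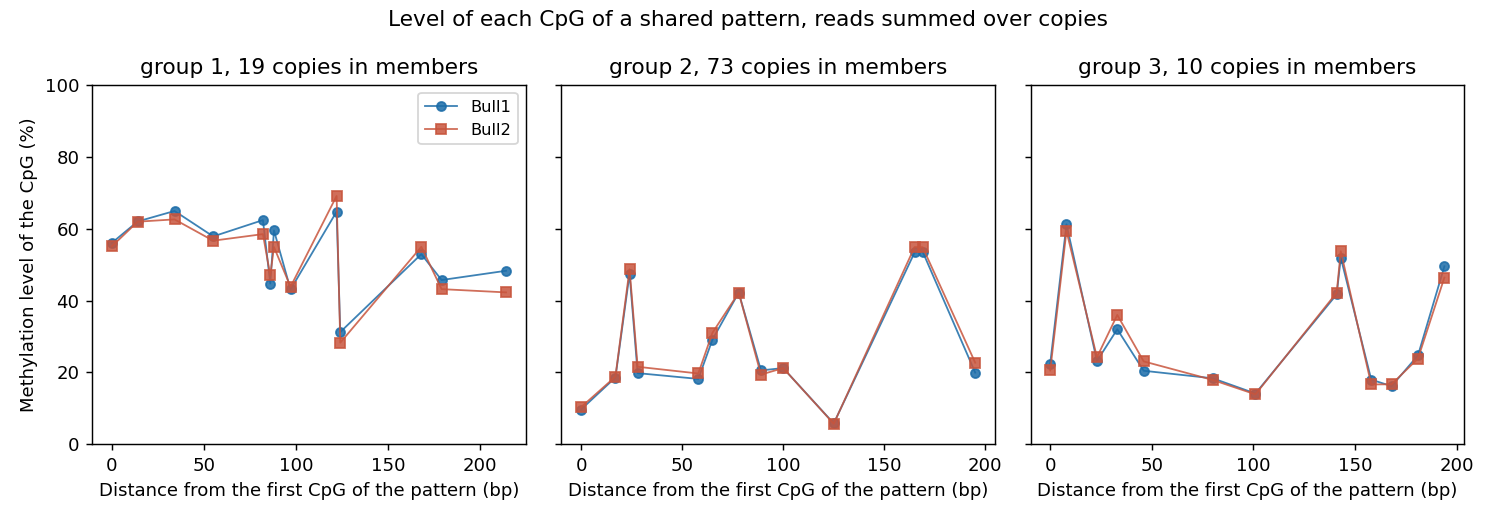
Level (y axis, %) of each of the 13 CpG sites of the pattern of groups 1, 2 and 3 against its distance from the first CpG (x axis, bp), with reads summed over the copies in members, for Bull1 (circles) and Bull2 (squares). The lines of the 2 bulls follow each other closely, and in group 2 the sites range from 5.80 to 53.6% in Bull1.

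A pooled level between 25% and 75% can come from CpG sites that are each intermediate or from a mixture of low and high sites. Of the member CpG sites with at least 10 reads in both libraries, 29312 in all, 65.6% were at 20 to 80% in both libraries, 10.4% were below 20% in both and 4.53% were above 80% in both. The remaining 19.5% were in different classes in the 2 libraries. The corresponding shares of intermediate sites were 11.6% in unmethylated runs and 3.72% in methylated runs. The 3 classes were cut on the pooled level of these same sites, so a higher share in members follows largely from the choice. In unmethylated runs the share was 5.02% at 5 reads and 22.4% at 20 reads. Members without a spacing group had 69.0% intermediate sites, group 1 had 77.3%, group 2 had 49.0% and group 3 had 42.6%. Sites below 20% in both were 31.9% in group 2 and 38.7% in group 3, against 1.43% in group 1.

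Single CpG sites departed from the level of their own run in the same way in both bulls. At the 8172 sites with at least 20 reads in both libraries, in 661 members, the SD of these departures was 16.9 points in Bull1 and 16.8 in Bull2, where counting error alone would give about 6.60 and 6.53. Pearson's r between the departures in Bull1 and Bull2 was 0.864. It was 0.693 over the 29312 sites with at least 10 reads. Sites are not independent replicates, and those of the deep groups 2 and 3 weigh most at 20 reads. Levels pooled by reads also differed with the place of a site. Over all members they were 38.5% and 37.7% where the nearest CpG was 17 to 50 bp away and 49.5% and 48.2% where it was 2 bp away, with no steady course between, and reads per CpG were higher at the isolated sites, with 15.1 against 10.2 in Bull1. In members without a spacing group the direction was the opposite, with 52.8% and 52.1% at 17 to 50 bp and 50.2% and 48.5% at 2 bp. From the outermost to the most central CpG sites of a run, the pooled level of members without a spacing group went from 54.3% to 48.9% in Bull1 and from 52.8% to 47.9% in Bull2, while reads per CpG went from 10.2 to 7.70 and from 9.80 to 8.31.

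Members were cut into 3 parts of equal CpG number to describe their shape. With at least 20 reads per part, 2802 members could be classed. In 1075 (38.4%, 36.6 to 40.2%) the 3 parts lay within 20 points of each other in both libraries, and these are called flat. In 175 (6.25%, 5.38 to 7.21%) the first and last part differed by 40 points or more in the same direction in both libraries, and these are called graded. A middle lower than both ends by 20 points was seen in 13 members and a middle higher in 2, and 1537 (54.9%) followed none of these forms. The share of flat members depended on reads. With at least 100 reads per part it was 64.0% (59.2 to 68.6%) of 419 members, and 47.8% (40.9 to 54.9%) of the 207 without a spacing group.

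Graded members joined a low and a high side. Their low end had medians of 11.8% in Bull1 and 11.9% in Bull2, and their high end 79.3% and 78.7%. The 2 kb of DNA beside the low end was at medians of 52.7% and 47.0%, and that beside the high end at 89.2% and 86.6%. The flank beside the low end was the lower one in 161 of 172 graded members in Bull1 and in 158 of 173 in Bull2. Of the 175 graded members 7 belonged to a spacing group, against 414 of the 1075 flat ones.

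The member with the most reads, counted in the library where it had fewer, was chr6:36462878-36464148, with 88 CpG sites over 1270 bp. Summed over its sites, it had 2518 of 6223 reads methylated in Bull1, a level of 40.5% (39.2 to 41.7%). It had 3397 of 8416 methylated in Bull2, a level of 40.4% (39.3 to 41.4%). Of its 82 sites with at least 10 reads, 66 were intermediate, and single sites ranged from 10.6 to 80% in Bull1 and from 11.1 to 75% in Bull2. It belongs to the group of 15 runs described above. The next members by this number of reads, chr27:28568447-28569671 (28.4% and 28.4%), chr7:30025633-30026881 (26.0% and 25.4%), chr27:28757334-28758291 (28.6% and 27.3%), chr1:153210042-153210665 (26.4% and 27.0%) and chr5:114238107-114239080 (25.3% and 26.2%), belonged to group 2 or 3. Their reads were unevenly spread. In chr1:153210042-153210665, 26 of 47 sites had at least 10 reads in both libraries, and no site from 439 bp on was read. In chr27:28757334-28758291 the first site alone had 817 reads in Bull1 and 791 in Bull2.

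In chr14:83532813-83533169 all 26 CpG sites were intermediate in both bulls. Its level was 38.2% (34.4 to 42.2%) in Bull1 and 36.8% (33.1 to 40.5%) in Bull2, with single sites from 20 to 65.0% and from 22.2 to 54.2%. Its flanks were unlike each other, with 82.2% and 75.1% on the left and 37.0% and 32.9% on the right. Every site with at least 10 reads was also intermediate in chr11:80843416-80844235, a run of level 61.5% and 55.0% with 17 such sites, and in chr4:120453371-120454169, a run of level 52.4% and 37.2% with 27 such sites. Among the 768 members with a mean of at least 10 reads per CpG and at least 15 such sites, 45 had only intermediate sites and 16 had fewer than 20% intermediate sites, with a median of 64.7%.

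At the other extreme, chr25:40219228-40219607 held no intermediate site among its 21 with at least 10 reads in both libraries. Its pooled level was 56.2% (51.8 to 60.5%) in Bull1 and 52.0% (47.4 to 56.5%) in Bull2. Of its sites, 9 were at 0 to 5.56% in Bull1 and all at 0% in Bull2, and 11 were at 90.3 to 96.7% in Bull1 and 82.6 to 100% in Bull2. The remaining site was at 95.5% and 80%. Low and high sites alternated along the run, the same sites being low in both bulls. The low sites had 18 to 30 reads each in Bull1, and 8 of the 9 had no methylated read. In chr20:3665290-3665547, pooled at 74.6% and 71.1%, and in chr20:70508702-70509168, pooled at 67.0% and 66.8%, 2 and 4 of the sites with at least 10 reads in both libraries were likewise at 0% in both bulls, beside 11 and 10 such sites above 80%. A site at which the animals' DNA carries no CpG is also read as unmethylated by this method, and genotypes were not used here.

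Such sharp steps were rare. Among 25324 pairs of neighbouring member sites that each had 10 reads or more per bull, 107 (0.423%) went from below 20% to above 80% or the reverse in both bulls, in 50 members. It was 0.703% (96 of 13665 pairs) in members without a spacing group and 0.0427% (4 of 9377) in those of groups 1 to 4. The share was 0.637% in methylated runs and 0 of 185904 pairs in unmethylated runs. By a limit of 3 counts the latter allows a share of up to 0.00161%, if pairs were independent, which neighbouring pairs are not. Unmethylated runs were chosen by a low pooled level. Only 22 of their 213990 sites with at least 10 reads per bull were above 80% in both bulls. Steps could thus hardly occur there, and their absence says little about how members differ from unmethylated runs. Only 8 members held 4 or more such steps.

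**Figure D4:**
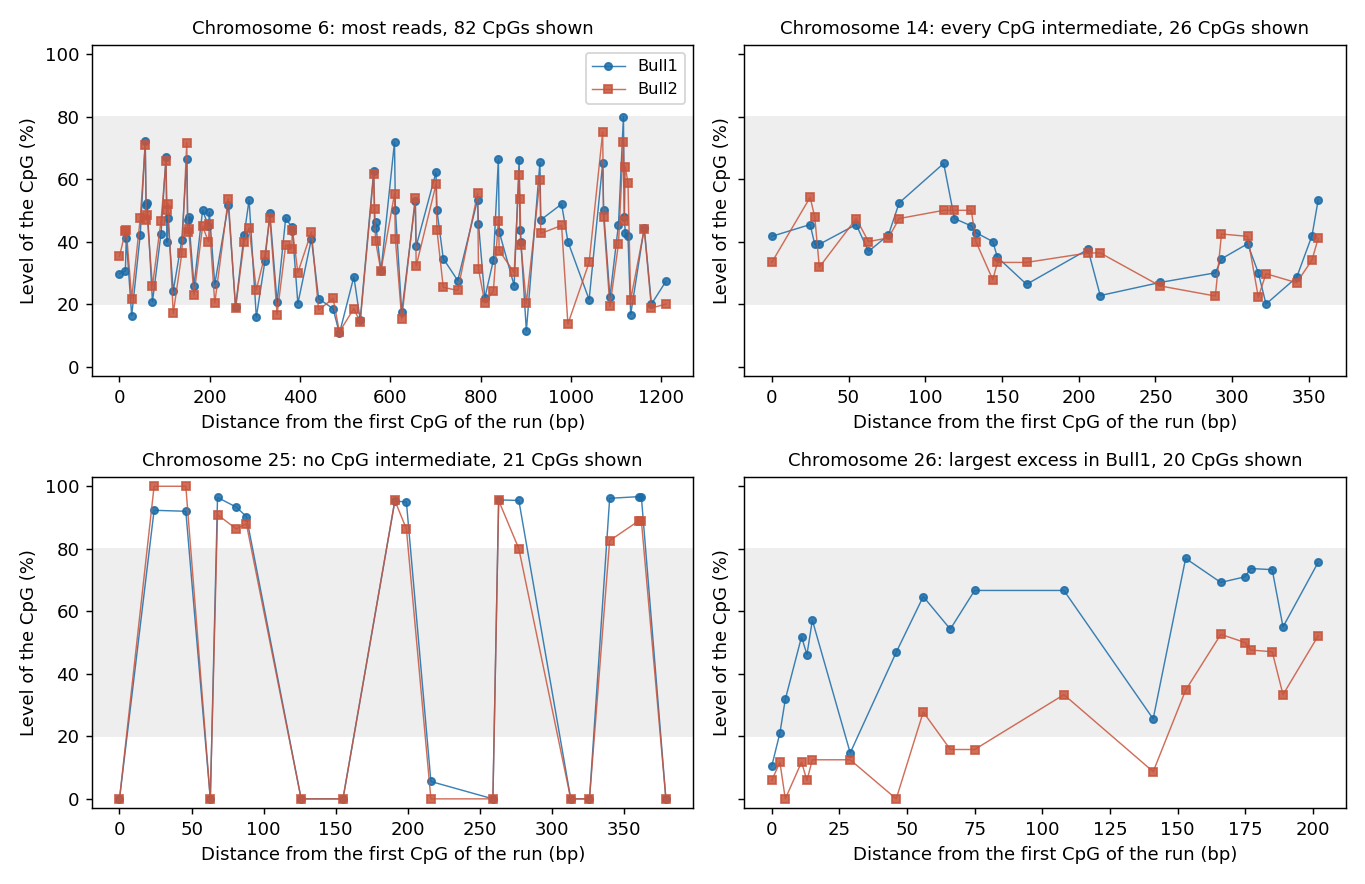
Level (y axis, %) of single CpG sites with at least 10 reads in both libraries against distance from the first CpG (x axis, bp) in 4 members, for Bull1 (circles) and Bull2 (squares), with the range from 20% to 80% shaded. High and low sites coincide in both bulls on chromosomes 6 and 25, and all 20 sites are higher in Bull1 on chromosome 26.

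The 2 kb flanks of members without a spacing group had median levels of 70.7% and 67.5% on the lower side and of 87.0% and 83.0% on the higher side. Of 3052 members with enough reads on both sides, 755 (24.7%, 23.2 to 26.3%) had both 2 kb flanks at 75% or more in both libraries, against 3.59% of unmethylated and 87.0% of methylated runs. Among members without a spacing group it was 697 of 2118 (32.9%, 30.9 to 35.0%). Both flanks were below 25% in both libraries in 215 members, and 189 of these belonged to group 2. Both flanks were above the member itself in 1610 members (52.8%) and below it in 369 (12.1%). In group 2, both flanks were below the member in 192 of 223.

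Outside members without a spacing group, the level rose quickly. In the first 200 bp the median was 63.0% in Bull1 and 60% in Bull2, and between 400 and 600 bp it was 83.0% and 78.4%. Beside all unmethylated runs, with or without a spacing group, the median between 400 and 600 bp was 14.5% and 14.8%. It reached 83.6% and 78.3% only at 1600 to 1800 bp. The 2 sets are thus not alike, and 49.3% of unmethylated runs had another unmethylated run within 2 kb. Beside members of group 1 the median was 60.9% and 57.9% between 400 and 600 bp and 68.9% and 65.7% at 3800 to 4000 bp. Beside members of groups 2 and 3 it was 14% and 15.7% between 400 and 600 bp and 20.3% and 20.9% at 3800 to 4000 bp. Beside the few members of group 4 it was 75.6% and 74.7%, and then 85.8% and 80.9%.

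**Figure D5:**
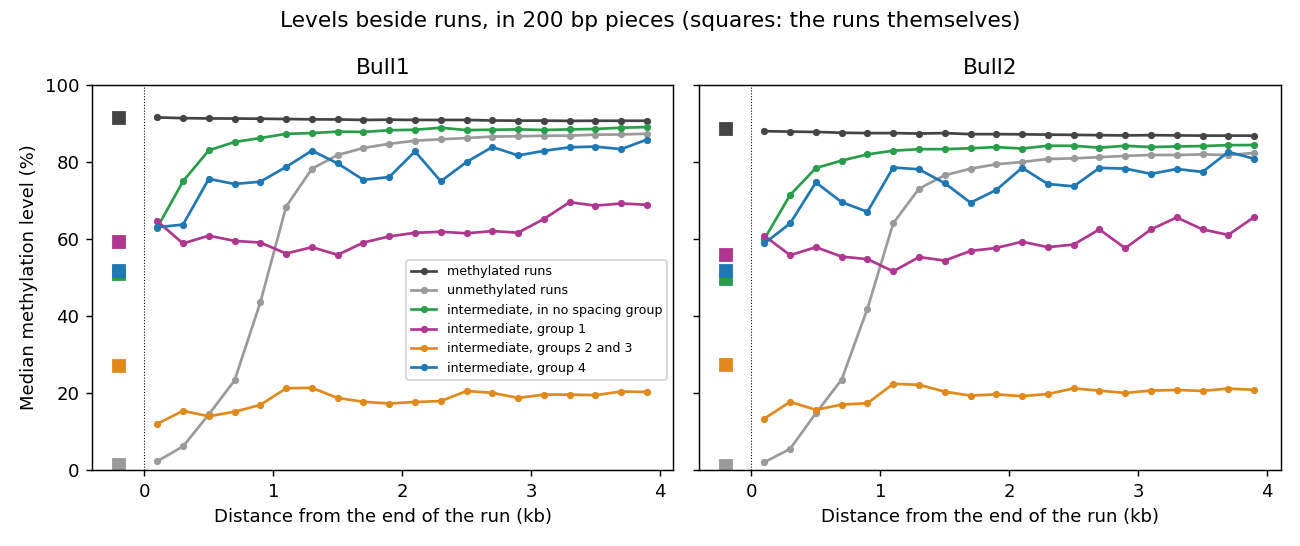
Median methylation level (y axis, %) of 200 bp pieces with at least 10 reads in both libraries, up to 4 kb from the ends of runs (x axis, kb), both sides together, in Bull1 and Bull2, with squares for the runs themselves. Levels beside members without a spacing group rise to 83.0% in Bull1 within 600 bp, whereas those beside members of groups 2 and 3 stay below 25% and those beside group 1 between 50% and 70%.

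The comparison between the twins asked how far their sperm differed at members. The choice of members by both levels limits the difference to 50 points and leaves out the 2086 eligible runs that lay in different bands. The median of Bull1 minus Bull2 was 0.776 points, with quartiles of -3.43 and 5.99. Bull1 was higher in 1702 members (55.0%) and lower in 1394, against 59.7% of all eligible runs higher in Bull1. The median difference was 2.76 points in methylated runs and 0 in unmethylated runs, and 0.511 over all eligible runs. Differences between the bulls had an SD of 8.94 points over members and of 5.37 over all eligible runs. Counting error alone would give about 4.23 and 2.46. The counting errors here and below take reads over neighbouring CpG sites as independent, which they are not, so they are likely too small. In the 1038 members that reached 10 reads per CpG in each bull the median was 0.158 points, with an SD of 6.52 against 3.23 from counting. Members without a spacing group had an SD of 9.53, against 4.37. Members of groups 2 and 3 sat at the lower edge of the band, which cuts their differences, so those groups are given over their eligible runs. The SD was 2.73 points in group 2 and 2.40 in group 3, against 2.01 and 1.76 from counting, with medians of -1.47 and -0.40 points.

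A difference of 20 points or more was found in 136 members (4.39%), against 0.795% of the 60344 eligible runs, where most levels lay near the ends of the scale and could vary less by counting error. It was higher in Bull1 in 84 members, against 0.534% of eligible runs in that direction, and lower in 52, against 0.262%. Of the 136, 111 had no spacing group, 18 were in group 1 and none were in groups 2 and 3. They had medians of 7.04 and 7.39 reads per CpG. At 10 reads per CpG or more, 11 of 1038 members (1.06%) passed this size, against 0.242% of eligible runs of that depth.

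Among members with at least 10 reads per CpG, the 3 largest differences in each direction were as follows. In chr26:14093105-14093307, 20 CpG sites over 202 bp, 352 of 638 reads summed over sites were methylated in Bull1, a level of 55.2% (51.2 to 59.1%). In Bull2 it was 93 of 372, a level of 25% (20.7 to 29.7%). Bull1 was higher by 30.2 points and at all 20 sites. In chr12:12083987-12084158, 24 sites over 171 bp, the level was 25.6% (20.97 to 30.7%) in Bull1 and 56.1% (50.6 to 61.6%) in Bull2, and Bull2 was higher at 22 of 23 sites. Bull1 was also higher in chr9:104782493-104782812, with 69.3% against 41.5%, and in chr15:59164850-59165214, with 73.6% against 48.9%. Bull2 was higher in chr15:47410818-47411232, with 74.9% against 51.7%, and in chr16:76020450-76020730, with 62.7% against 44.0%. Single sites were less uniform in some of the 6. Of the sites with at least 10 reads in both libraries, Bull1 was higher at 15 of 16 on chromosome 9 and at 9 of 13 in chr15:59164850-59165214, with 3 lower. Bull2 was higher at 6 of 7 sites in chr15:47410818-47411232 and at 15 of 17 in chr16:76020450-76020730. The other 2 sites of the latter lay near its end, where Bull1 was at 57.1% and Bull2 at 30% after 250 bp, and at 66.7% and 40% after 264 bp. The 6 members were picked for their difference, and no replicate exists to set it against. A read can cover several sites of such short runs, so neither the sites nor the reads behind an interval are independent counts.

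Single CpG sites were compared by a two-sided Fisher exact test with Benjamini-Hochberg adjustment over all 23978882 sites with at least 5 reads in both libraries. No member site was a differentially methylated cytosine (DMC) at a false discovery rate of 0.05, of 70564 tested. Of all sites, 82 (0.000342%) were called, and of the sites of eligible runs 3 (0.000208%). With so few calls, the lack of any in members says little about them. The paper reports far more DMCs between these bulls under the same named test, coverage minimum and false discovery rate. The reason for that gap was not tested. Before adjustment, 1583 member sites (2.24%) had a p of 0.05 or less, against 2.88% of all sites. Over the sites of eligible runs it was 0.862%, where most levels lay near the ends of the scale. Of the 1583 member sites, 915 (57.8%) were higher in Bull1, close to the 58.4% of the 12412 such sites in eligible runs. In the whole genome it was 88.0% of 689715 such sites. The 1583 sites lay in 975 members, with 5 or more in 32 members and at most 10 in a single one. Depth limited this test. The largest p among the 82 calls was 1.70e-07, and 22142 member sites (31.4%) had enough reads to reach it if all reads were methylated in one bull and none in the other. The smallest p at a member site was 3.48e-05. The Fisher tests set library against library, with no measure of variation between animals.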

How the data were processed

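Whole-genome bisulfite sequencing gave 1 sperm library per bull (Bull1, Bull2), each taken as its own group from its title. The authors trimmed and filtered reads (FastQC 0.11.2 and Trim Galore 0.4.0 are named in their processing notes), ran Bismark with Bowtie2 on default settings against UMD3.1, and removed duplicate reads. The methods place the version 0.14.5 after both aligner names. For each CpG the deposited tables give whole-number counts of methylated, unmethylated and all reads, with no normalization. They also give the methylation level that the authors computed as a fraction, which equalled the ratio of the counts within 1e-05. Both tables list the same 27203217 sites. It is not stated whether both strands were summed, or whether positions start at 0 or 1.

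All values here come from the counts, through scripts in Python 3.11.15 with numpy 2.4.6, pandas 2.3.3, scipy 1.17.1 and numba 0.67.0. The members, lists and tests were chosen with earlier results of these data known, and the spacing groups after the tables were seen. Spacing groups used runs of 20 to 99 CpG sites, and windows of 8 distances with 2 or fewer different values were skipped. Flanks were the listed sites within 2 kb of each end, with at least 50 reads per flank and library. Islands were named by reads, by the Bull1 minus Bull2 difference, by the share of intermediate sites and by nearness to the level limits. Steps were tested on simulated data with planted runs, changed sites and copies. Other gaps, read minimums, level bands, averages, depth limits, shape and flank settings were tried. Gene starts in members were not analysed here, because an annotation of UMD3.1 was not used.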

Additional observations from a re-analysis of the deposited data

Results flagged for a closer look

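Runs outside the comparisons above also had intermediate levels. On the X chromosome, which the autosomal choice leaves out, 97 of 1096 runs that met the read limits (8.85%) were at 25% to 75% in both libraries, with median levels of 46.7% in Bull1 and 44.7% in Bull2, a median difference of 0.505 points and 7.63 and 7.86 reads per CpG. Among the 2573 autosomal runs set aside for a mean of 100 reads per CpG or more, 347 (13.5%) lay in the band. Their median levels were 26.6% and 27.3%, at 205.5 and 217.5 reads per CpG, and 176 belonged to spacing group 2, 122 to group 3, 29 to other spacing groups and 20 to none.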

How the results depend on the processing

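No paired analysis was possible because neither bull had a second library. The number of members, 3097, became 887 with gaps of at most 30 bp and 7578 with gaps of at most 100 bp, 1985 with at least 200 reads, 1038 with at least 10 reads per CpG, 2021 in a band of 30 to 70% and 5256 in a band of 20 to 80%. The count of members that differed by 20 points or more fell from 136 to 11 at 10 reads per CpG, where fewer members were compared. The share of intermediate sites in members was 61.5% at 5 reads, 58.3% at 20 reads and 69.0% without spacing groups, against 65.6%. The share of flat members was 64.0% with 100 reads per part, 67.3% within 30 points and 33.2% without spacing groups, against 38.4%. The share with methylated flanks was 17.3% with flanks of 1 kb, 29.8% without the first 200 bp and 32.9% without spacing groups, against 24.7%. At 10 reads per CpG the carry-over was 83.8% from Bull1 and 67.9% from Bull2. With 12 shared distances, 611 members were in a spacing group and 231 in group 1, against 965 and 434. Beyond what each setting itself removes, the cause was not tested. The median difference between the bulls kept its sign under its 4 alternatives and ranged from 0.158 to 1.08 points, and no DMC was called in members with 10 reads or at a false discovery rate of 0.01. The settings without spacing groups and with 10 or 12 distances were chosen after seeing the data.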
